A study of Homo sapiens with 6 samples.

Results

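The ATF4 stress response genes examined here are 10 named genes, ATF4, ATF3, DDIT3, CEBPB, TRIB3, SESN2, CHAC1, GDF15, ASNS and PSAT1, out of 25987 genes with a symbol in the deposited count table. They were found by their symbols, and all 10 passed the filter on low counts that left 12944 genes for testing. The RNA came from 786-O cells, an established human renal cell carcinoma line that lacks functional VHL, labelled as wild type and grown in DMEM/F12 with 10% serum. In the copper group (3 libraries) the cells had been adapted to copper carried by serum proteins, and in the control group (3 libraries) the serum was handled alike without copper. The copper dose is 30 uM in the series text, whereas the sample labels count up from 30 uM in replicate 1 through 31 uM in replicate 2 to 32 uM in replicate 3. The 3 libraries were kept together as a single group. The labels do not give the length of the adaptation, and do not say whether the libraries of a group came from separately adapted cultures, so p-values measure the spread between these libraries only.

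ATF4 is a basic leucine zipper transcription factor at the end of the integrated stress response. Kinases that sense amino acid shortage, endoplasmic reticulum stress, double-stranded RNA or heme and mitochondrial stress phosphorylate the translation factor eIF2, which slows general translation but lets the ATF4 message be translated through its upstream reading frames. Since much of this control is translational, the mRNA level of ATF4 is not a measure of its protein. ATF4 then binds C/EBP-ATF response elements, often with a C/EBP partner, and induces amino acid synthesis and transport genes, the factors CHOP (encoded by DDIT3) and ATF3, and feedback genes such as TRIB3.

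The log2 fold change between copper and control lay between -0.44 and 0.21 for 9 of the 10 genes, and the groups overlapped for each of the 9. ATF4 mRNA itself was at 334 ± 19.9 CPM (counts scaled to a common library size after TMM correction; SD, n = 3) in copper and 332 ± 24.5 CPM in control. Apart from these stood GDF15, a secreted stress cytokine of the TGF-beta superfamily, which was at 7.61 ± 2.51 CPM in copper and 3.83 ± 1.08 CPM in control. Across all genes tested, edgeR's quasi-likelihood test with Benjamini-Hochberg adjustment called 0 of 12944 genes at an adjusted p under 0.05 (0%), and so 0 of the 10. At an unadjusted p under 0.05 it had 455 genes (3.52%), and 1 of the 10, GDF15. DESeq2 called 27 genes (0.209%), none of the 10. With the replicate number as a block, edgeR called 22 genes (0.17%), again none of the 10, with an unadjusted p under 0.05 for 8.41% of all genes and for 1 of the 10, GDF15. DESeq2 with that block called 58 genes (0.448%), of which GDF15 was 1. For scale, the metallothionein gene MT2A had a log2 fold change of 1.07 (SE 0.11) in the same libraries, and edgeR gave it an adjusted p of 0.00516 in the blocked fit and 0.0843 in the other.

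**Figure D1:**
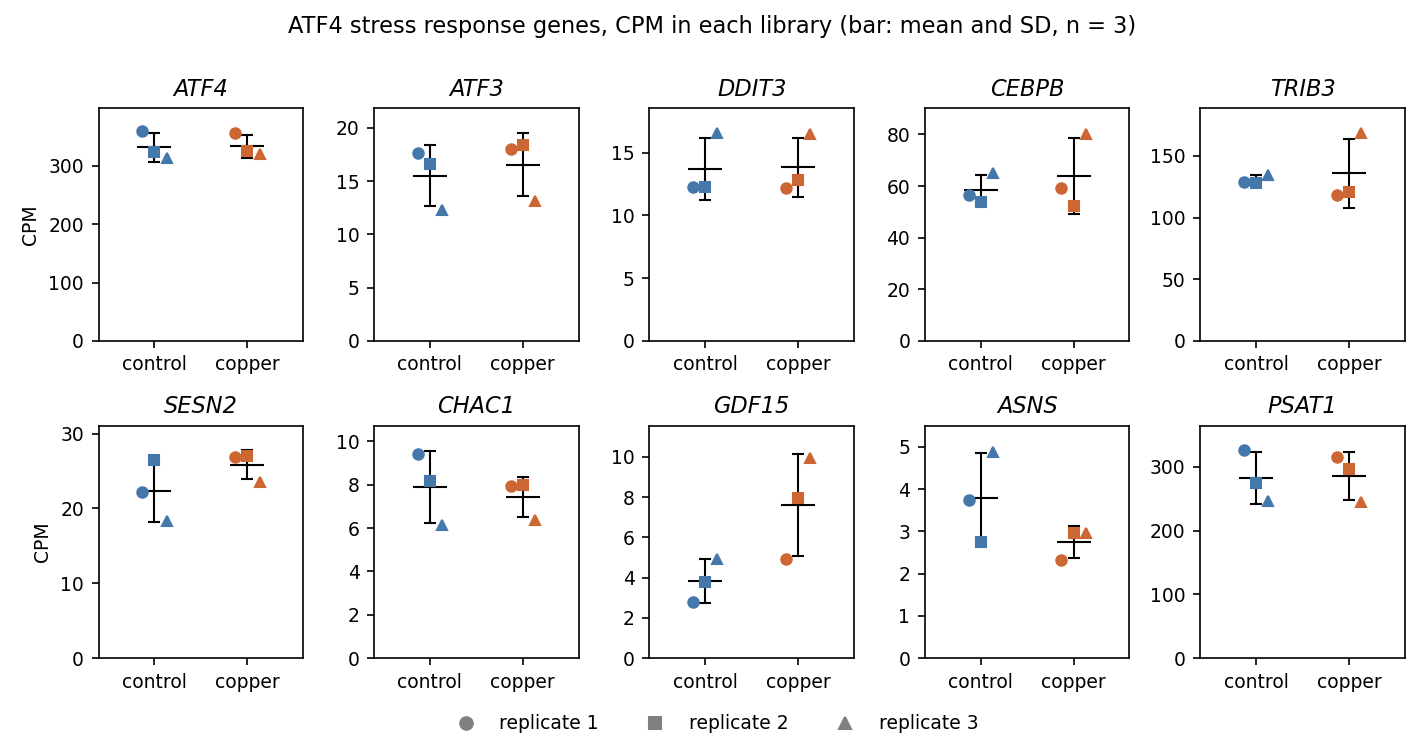
CPM of each of the 10 genes (vertical axes, linear and starting at 0) in the 3 control and 3 copper libraries, with the replicate number as the symbol and the mean and SD (n = 3) as bars. GDF15 is the one gene whose groups do not overlap, with control from 2.78 to 4.93 CPM and copper from 4.94 to 9.93 CPM.

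The libraries held from 16301772 to 18189469 counts in copper and from 19219090 to 25079913 in control. Replicate 3 of each group stood apart from replicates 1 and 2 on the leading axis of variation (57.9% of the variance of log2 CPM), with scores of 41.2 in copper and 17.6 in control against -17.6 to -11.7 for the others. All 9 genes fixed as markers of these cells had counts in every library, from 5.58 to 9.18 CPM for PAX2 up to 2764 to 3860 CPM for VIM. Those of leukocytes (PTPRC, 0 to 4 counts), endothelium (PECAM1, 0 to 3), hepatocytes (ALB, 4 to 10) and thick limb epithelium (UMOD, 0 to 1) were at or near 0 in each library. NPHS1 of podocytes was not found under that symbol in the deposited counts.

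The promoters of the 10 genes were searched for the element that ATF4 binds. Its core TGATGNAA was searched on both strands of RefSeq promoter windows (GRCh38.p14, 250 bases before to 50 bases after each annotated start), in which the 10 genes have 17 windows. It was found in 3 of the 17, one each of ASNS, CHAC1 and ATF3, and in 3.62% of all 35116 windows. The stretches that hold it are printed 5′ to 3′ on the strand of the gene, with the core in capitals. They show the letters that matched this core.
ASNS, chr7:97872443-97872502, minus strand: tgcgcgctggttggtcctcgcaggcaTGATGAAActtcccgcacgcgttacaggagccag
CHAC1, chr15:40953236-40953295, plus strand: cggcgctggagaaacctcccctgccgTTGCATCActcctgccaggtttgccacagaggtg
ATF3, chr1:212565190-212565249, plus strand: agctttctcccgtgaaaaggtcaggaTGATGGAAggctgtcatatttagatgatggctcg
The core of ASNS begins 68 bases before the start and that of ATF3 191 bases before it. In CHAC1 it lies on the opposite strand, 209 bases before the start, and reads TGATGCAA on that strand. The ATF3 window belongs to a start upstream of the gene's span in the deposited table. The windows of GDF15, ATF4, DDIT3, SESN2 and PSAT1 held none of the 4 motifs searched, which says only that those letters are not in these windows. The cAMP response element TGACGTCA was in 0 of the 17 windows (1.85% of all) and the endoplasmic reticulum stress element in 0 (0.0769% of all). The antioxidant response core TGACNNNGC was in 4 windows (13.3% of all), 1 of CEBPB and 3 of TRIB3 that share the same bases, and none of the motifs found overlapped another. A match is a description of the sequence and not evidence of binding.

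None of the 4 transcription factors passed the edgeR test without the block, which called 0 of all 12944 genes tested. ATF4 (Entrez 468; chromosome 22, 39520559 to 39522686, plus strand) was at 357, 325 and 320 CPM in copper replicates 1, 2 and 3 and at 360, 324 and 313 CPM in control replicates 1, 2 and 3. Each copper library lay close to the control library of its number, and the groups overlapped over nearly their whole range. For ATF4 the log2 fold change was 0.0072 (SE 0.099), and its 95% interval from -0.22 to 0.24 corresponds to ratios from 0.857 to 1.18. With 5791 to 8942 counts per library, ATF4 was among the most precisely counted of the 10.

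ATF3 (Entrez 467; chromosome 1, 212608761 to 212620774, plus strand), a stress-induced bZIP factor that often represses its targets, was at 18.0, 18.4 and 13.1 CPM in copper and 17.6, 16.6 and 12.3 CPM in control. Replicate 3 was the lowest of each group. ATF3 was higher in copper in all 3 replicate numbers, as were 17.7% of all genes tested. Its log2 fold change was 0.088 (SE 0.19; 95% interval -0.35 to 0.53). DDIT3 (Entrez 1649; chromosome 12, 57516588 to 57520517, minus strand), which encodes the pro-apoptotic factor CHOP, was at 12.2, 12.8 and 16.5 CPM in copper and 12.2, 12.3 and 16.6 CPM in control. Here replicate 3 was the highest of each group, and same-numbered libraries differed by at most 0.061 on the log2 scale. The log2 fold change of DDIT3 was 0.019 (SE 0.18; 95% interval -0.40 to 0.44). DDIT3 overlaps MARS1 on the opposite strand, and the use of strand in counting is not given in the sources used here.

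CEBPB (Entrez 1051; chromosome 20, 50190583 to 50192691, plus strand), a C/EBP factor that pairs with ATF4, was at 59.1, 52.3 and 80.3 CPM in copper and 56.4, 54.0 and 65.2 CPM in control. The copper library of replicate 3 was the highest of the 6, and the other 2 copper libraries lay close to the control libraries of replicates 1 and 2. CEBPB had a log2 fold change of 0.13 (SE 0.17; 95% interval -0.27 to 0.52). The antisense gene CEBPB-AS1, which overlaps it, had 7 to 21 counts per library against 932 to 1488 for CEBPB.

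Among the feedback and effector genes, TRIB3, SESN2 and CHAC1 did not pass the test, which no gene passed without the block. TRIB3 (Entrez 57761; chromosome 20, 381295 to 397559, plus strand) encodes a pseudokinase that ATF4 and CHOP induce and that restrains both. It was at 119, 121 and 168 CPM in copper and 129, 128 and 135 CPM in control. Copper replicates 1 and 2 were the lowest of the 6 libraries and copper replicate 3 the highest. Between same-numbered libraries TRIB3 differed by -0.12, -0.080 and 0.32 (log2). The log2 fold change of TRIB3 was 0.060 (SE 0.15; 95% interval -0.28 to 0.40), and without copper replicate 3 it was -0.12.

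SESN2 (Entrez 83667; chromosome 1, 28259518 to 28282491, plus strand), a leucine sensor that holds back mTORC1 and is also induced by p53 and NRF2, was at 26.9, 27.0 and 23.6 CPM in copper and 22.2, 26.5 and 18.3 CPM in control. Copper was the higher of the pair in all 3 replicate numbers, by log2 differences of 0.28, 0.027 and 0.36, as it was for 17.7% of all genes tested. The groups overlapped. For SESN2 the log2 fold change was 0.21 (SE 0.15; 95% interval -0.14 to 0.56). Its adjusted p by edgeR was 1.00, and 0.594 once the block was added.

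CHAC1 (Entrez 79094; chromosome 15, 40953471 to 40956512, plus strand), an enzyme that breaks down glutathione and a sensitive target of the ATF4 and CHOP branch, was at 7.92, 7.96 and 6.37 CPM in copper and 9.41, 8.19 and 6.13 CPM in control. The 3 copper libraries lay inside the control range. CHAC1 had a log2 fold change of -0.096 (SE 0.20; 95% interval -0.55 to 0.36). At 117 to 234 counts per library, counting alone gives CHAC1 a relative error of 6.54% to 9.25%.

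The amino acid enzymes stood at opposite ends of the range of levels. PSAT1 (Entrez 29968; chromosome 9, 78297125 to 78330093, plus strand), the aminotransferase of serine synthesis, was at 316, 297 and 245 CPM in copper and 327, 275 and 246 CPM in control. In both groups replicate 1 was the highest and replicate 3 the lowest, and the log2 fold change was 0.016 (SE 0.14; 95% interval -0.32 to 0.35). ASNS (Entrez 440; chromosome 7, 97851677 to 97872408, minus strand) encodes asparagine synthetase, a textbook target of ATF4 in amino acid shortage. It was at 2.32, 2.97 and 2.97 CPM in copper and 3.74, 2.75 and 4.87 CPM in control. Control replicate 2 lay below 2 of the copper libraries, so the groups overlapped. The log2 fold change of ASNS was -0.44 (SE 0.25; 95% interval -1.05 to 0.14). Its adjusted p by edgeR was 1.00, and 0.594 once the block was added. Between same-numbered libraries ASNS differed by -0.67, 0.11 and -0.70 (log2), so it was lower in copper in replicates 1 and 3 and not in replicate 2. ASNS was the most thinly counted of the 10, with 38 to 93 counts per library and a counting error of 10.4% to 16.2%.

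GDF15 (Entrez 9518; chromosome 19, 18386158 to 18389176, plus strand) acts on a brainstem receptor to lower food intake and is used as a marker of mitochondrial and integrated stress, with p53 as another inducer. It was at 4.94, 7.96 and 9.93 CPM in copper and at 2.78, 3.77 and 4.93 CPM in control. The groups did not overlap with copper higher, as in 5.45% of all genes tested, but they nearly met: the lowest copper library (4.94 CPM, 81 counts) was level with the highest control library (4.93 CPM, 94 counts). Copper exceeded control for GDF15 in each replicate number, by log2 differences of 0.81, 1.06 and 1.00. The direction alone was shared by 17.7% of all genes tested. The ratio of the group means was 1.99. edgeR put the log2 fold change of GDF15 at 0.98 (SE 0.31; 95% interval 0.29 to 1.72), the unadjusted p at 0.0124 and the adjusted p at 1.00.

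With the replicate block the log2 fold change of GDF15 was 0.96 and its SE 0.14 (95% interval 0.66 to 1.30), and the edgeR adjusted p was 0.0533. DESeq2 with the block gave an adjusted p of 0.0129, and DESeq2 without it 0.398. The blocked edgeR fit of all libraries thus did not call GDF15. With any 1 replicate number left out it did, at adjusted p-values of 0.00333 without replicate 1, 0.0103 without replicate 2 and 0.00121 without replicate 3. With few libraries left, each of these fits leans heavily on the spread estimated over all genes. They share libraries with each other and with the full fit, so they are not separate tests. Those 3 fits called 0.568%, 0.589% and 7.03% of all genes tested in them, so the smallest adjusted p came from the fit with the most calls. The smallest unadjusted p by edgeR was that of the fit without replicate 1, at 7.63e-06. It was 3.30e-05 without replicate 2 and 1.61e-05 without replicate 3. Over the 22 alternatives GDF15 was higher in copper in 22 and called in 4, all of them with the block. In edgeR the 95% interval of GDF15 lay above 0 with and without the block, while its p adjusted over all genes stayed above 0.05 in both.

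**Figure D2:**
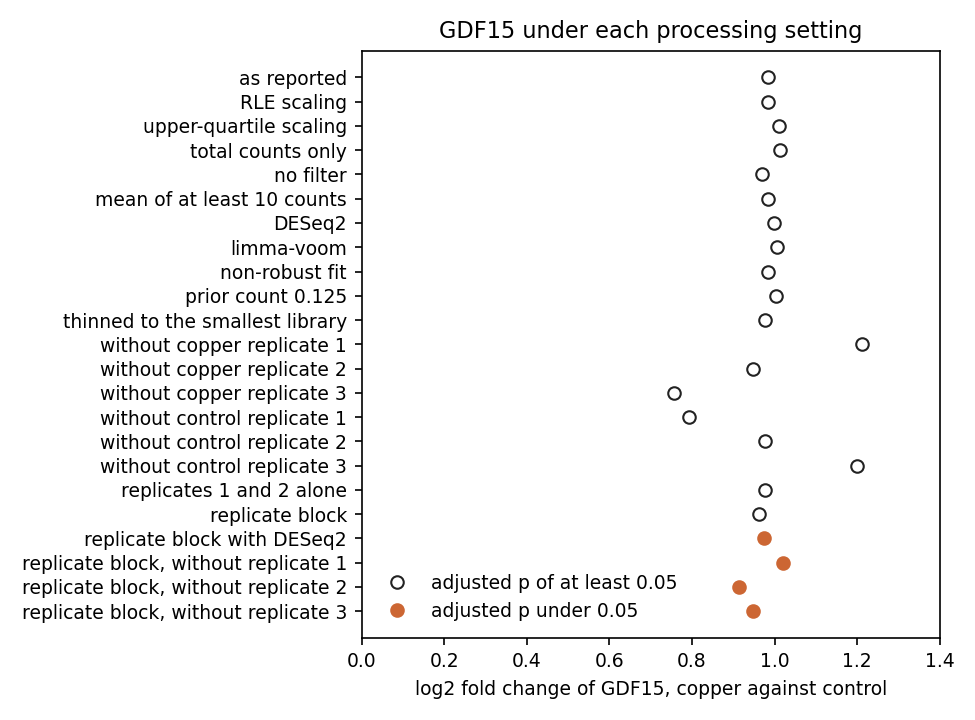
Log2 fold change of GDF15, copper against control, as reported and under each of the 22 alternatives (rows), with filled points where the adjusted p was under 0.05. All values lie between 0.76 and 1.21, and the 4 filled points are among the fits with a replicate block.

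For 8 of the 10 genes the 95% interval of the log2 fold change lay within -1 and 1, as it did for 11484 of the 12944 genes tested; the others were GDF15 and ASNS. Of the 10, 8 had a log2 fold change of less than 0.25 in size, which is 80% against 85.2% of all genes tested. The median log2 fold change of the 10 was 0.039 and that of all genes tested was 0.0052.

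**Figure D3:**
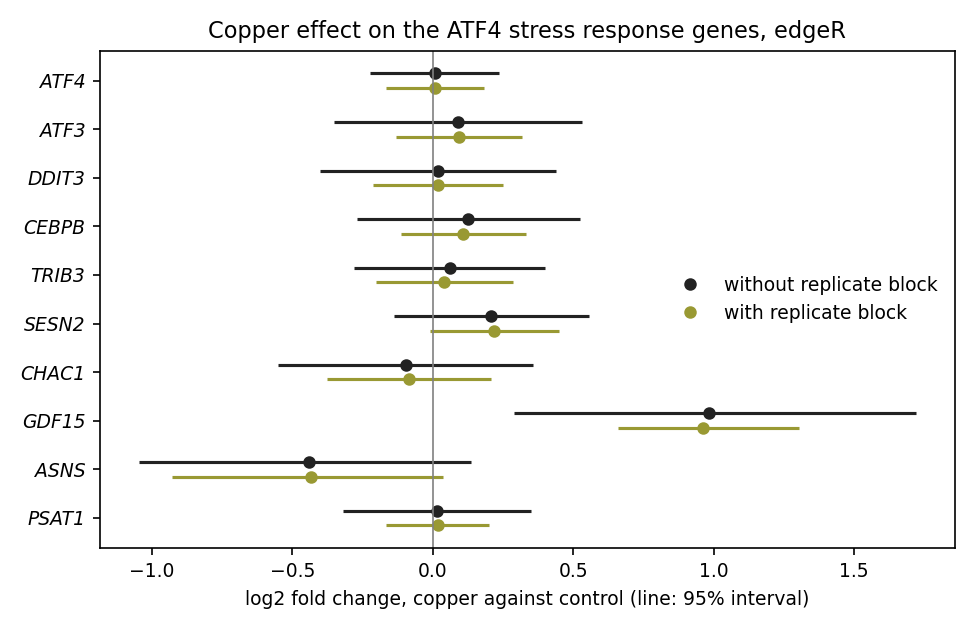
Log2 fold change of each gene, copper against control (horizontal axis), with its 95% interval as a line, from the edgeR fit without the replicate block (dark) and with it (light). The line for GDF15 does not reach 0 in either fit, and that of every other gene crosses 0 in both.

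For 8 of the 10 genes the change from replicate 1 to replicate 3 was larger in size than the copper difference of the same blocked fit, the exceptions being GDF15 and ASNS; the same held for 72.3% of all genes tested. An F test of the replicate number in the blocked edgeR fit, with group as a term, called 836 of 12944 genes (6.46%) and 1 of the 10. That gene was again GDF15, with an adjusted p of 0.0417, and its log2 change from replicate 1 was 0.56 in replicate 2 and 0.90 in replicate 3. The next were ATF3, with an adjusted p of 0.0635 by edgeR and a log2 change from replicate 1 to replicate 3 of -0.49, and DDIT3, with 0.0847 and 0.43. PSAT1 and CEBPB had adjusted p-values of 0.0850 and 0.0894, with changes from replicate 1 to replicate 3 of -0.39 and 0.33. The genes did not go one way together in replicate 3. CPM in replicate 3 was above that of replicate 1 in both groups for DDIT3, CEBPB, TRIB3, GDF15 and ASNS, and below it in both groups for ATF4, ATF3, SESN2, CHAC1 and PSAT1.

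**Figure D4:**
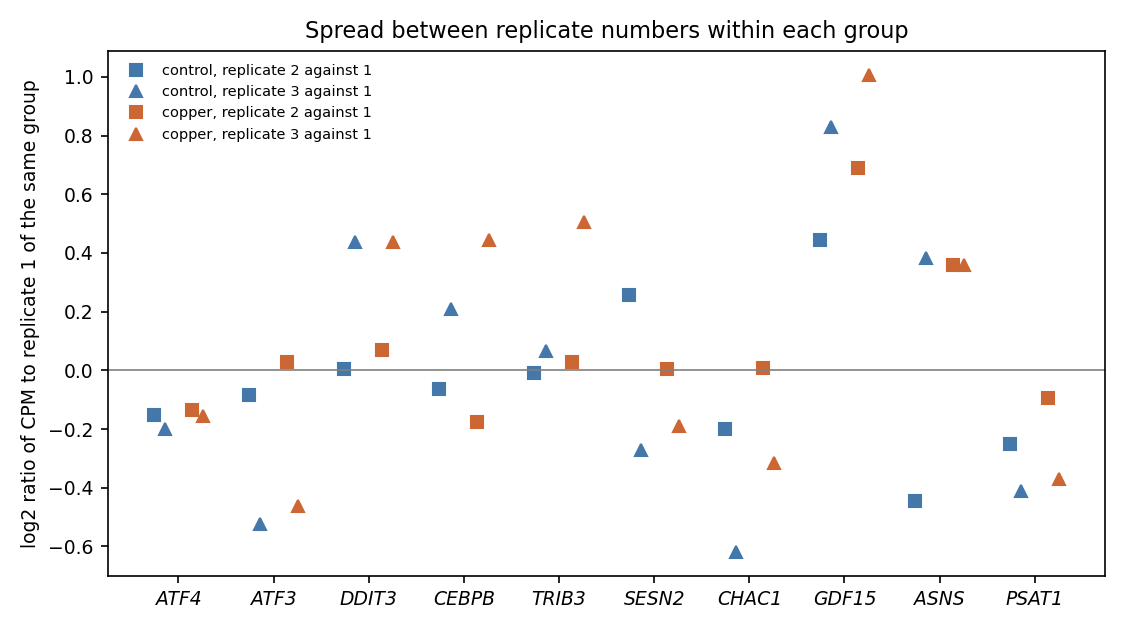
Log2 ratio of the CPM of replicates 2 (squares) and 3 (triangles) to that of replicate 1 of the same group, for each gene, in control (blue) and copper (orange). For DDIT3 and ATF3 the triangles of both groups lie together, near 0.44 for DDIT3 and at -0.52 and -0.46 for ATF3, while their copper differences are near 0.

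Per kilobase of merged exon (GENCODE 29), which allows levels to be compared between genes, the control means in CPM per kilobase ran from ATF4 at 132 ± 9.75 and PSAT1 at 129 ± 18.8 through TRIB3 at 45.0 ± 1.31, CEBPB at 29.9 ± 3.02 and DDIT3 at 10.5 ± 1.91. Below these came SESN2 at 6.47 ± 1.18, ATF3 at 6.11 ± 1.12, CHAC1 at 3.84 ± 0.806, GDF15 at 3.19 ± 0.897 and ASNS at 1.52 ± 0.427 (SD, n = 3). ATF4 and PSAT1 did not differ beyond their spread, nor did SESN2 and ATF3, nor CHAC1 and GDF15. In copper the order was the same apart from GDF15, at 6.34 ± 2.10 CPM per kilobase, which stood above CHAC1 at 3.60 ± 0.443 and within the spread of ATF3 at 6.51 ± 1.16. ATF4 and PSAT1, as well as ASNS, have pseudogenes in RefSeq, and the treatment of reads that match several places is not given in the sources used here.

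Upstream of ATF4, the eIF2 kinases and the subunits and regulators of eIF2 and its exchange factor were all tested, 20 of 20 genes. Of these 0 passed in either direction at an adjusted p under 0.05 without the block, as with all genes tested (0%). In edgeR 0 of the 20 had an unadjusted p under 0.05 without the block and 2, GCN1 and EIF2AK3, with it (against 8.41% of all genes). The median log2 fold change was -0.038, and 5 of 20 had all copper libraries below all control libraries, against 5.35% of all genes tested. They included the kinase of endoplasmic reticulum stress, EIF2AK3 (PERK), at 53.0 ± 7.54 CPM in copper and 62.8 ± 3.66 CPM in control. EIF2AK4 (GCN2), the amino acid shortage kinase, was at 144 ± 20.9 and 163 ± 1.12 CPM. Its activator GCN1 was at 272 ± 11.0 and 314 ± 22.1 CPM, a log2 fold change of -0.20 (SE 0.094). The groups of both kinases nearly met. The highest copper library was at 58.3 CPM for EIF2AK3 and 161.6 CPM for EIF2AK4, and the lowest control library at 59.9 and 162.0 CPM. Between same-numbered libraries EIF2AK3 differed by -0.039, -0.25 and -0.47 (log2), and EIF2AK4 by -0.11, -0.023 and -0.43. GCN1 differed by -0.14, -0.27 and -0.20. The median of the list in replicates 1, 2 and 3 was -0.012, 0.031 and -0.13, so it lay furthest from 0 in replicate 3.

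Of 27 bZIP partners and relatives, 25 were tested and, as in the whole fit without the block, 0 passed. The median log2 fold change was -0.041, with 9 above 0 and 16 below. ATF7 had the smallest p, at 20.2 ± 2.00 CPM in copper and 24.8 ± 1.96 CPM in control (log2 fold change -0.29, SE 0.12). NFE2L1, which drives proteasome genes, was at 227 ± 6.12 and 256 ± 6.11 CPM, and the small Maf protein MAFG, a partner of NRF2, at 109 ± 1.88 and 98.2 ± 2.65 CPM. These 3 of the 25 had groups that did not overlap, as did 10.8% of all genes tested, and their log2 fold changes were 0.29 or less in size.

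Among the other targets of ATF4, amino acid genes had more members below 0 than above. Of 23 genes of amino acid synthesis and transport, 22 were tested and, as in the whole fit without the block, 0 passed in either direction. Their median log2 fold change was -0.11, with 18 below 0 and 4 above, where 48.6% of all genes tested were below 0. The list medians were -0.077, -0.068 and -0.10 in replicates 1, 2 and 3. MTHFD2, the mitochondrial folate enzyme, was at 312 ± 12.3 CPM in copper and 360 ± 13.9 CPM in control (log2 fold change -0.21, SE 0.088). The glutamine transporter gene SLC38A2 was at 260 ± 22.0 and 300.5 ± 19.3 CPM (-0.21, SE 0.10), and ALDH1L2 at 2.86 ± 0.687 and 3.67 ± 0.219 CPM (-0.35, SE 0.22). The edgeR adjusted p of each was 1.00 without the block, and with it 0.555, 0.593 and 0.630.

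Of 27 stress signalling targets of ATF4 and CHOP, 26 were tested and, as in the whole fit without the block, 0 passed. Their median log2 fold change was -0.037, with 12 above 0 and 14 below. The autophagy receptor SQSTM1 (p62), which NRF2 also induces, was at 176 ± 20.8 CPM in copper against 137 ± 9.67 CPM in control. In edgeR it had a log2 fold change of 0.36 (SE 0.12), an unadjusted p of 0.0165 and an adjusted p of 1.00. SQSTM1 was higher in copper in all 3 replicate numbers, as were 17.7% of all genes tested, by log2 differences of 0.46, 0.31 and 0.29. In replicates 1 and 2 alone, which called 111 genes (0.856%), edgeR called it with an adjusted p of 0.0165. RIT1, a small GTPase of the Ras family, was at 38.4 ± 2.34 and 32.2 ± 1.03 CPM, and CLIC4 at 861 ± 224 and 1088 ± 120 CPM. By replicate number, 8 of these 26 genes were called (30.8%), against 6.46% of all genes tested.

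The cytosolic tRNA synthetases, many of which ATF4 induces, were all tested, and, as in the whole fit without the block, 0 of 20 passed. Their log2 fold changes ran only from -0.12 to 0.11, with a median of -0.016. VARS1 was at 141 ± 3.09 CPM in copper and 153 ± 8.67 CPM in control, FARSB at 135 ± 8.24 and 125 ± 3.79 CPM, and FARSA at 68.0 ± 6.61 and 63.7 ± 3.62 CPM. Endoplasmic reticulum chaperones and other genes of the ATF6 and XBP1 arms respond to unfolded protein. Of these, again as in the whole fit, 0 of 22 passed, and the median was -0.080, with 7 above 0 and 15 below. CRELD2 was at 50.8 ± 5.47 and 44.2 ± 3.49 CPM, DERL1 at 214 ± 10.8 and 238 ± 8.0 CPM, and SEC61B at 123 ± 9.62 and 111 ± 5.10 CPM. The median of this list in replicates 1, 2 and 3 was 0.0058, -0.048 and -0.15, and it was -0.0071 without control replicate 3 and -0.12 without control replicate 1. Adjusted over all genes, edgeR gave p-values of 1.00 for each of the 18 list genes named without the block and from 0.289 to 0.784 with it.

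The list counts depended on replicate 3 and the block together. In replicates 1 and 2 alone without the block, edgeR called 1 of 22 amino acid genes and 1 of 26 stress signalling targets. The blocked edgeR fit without replicate 3 called 7.03% of all genes tested. Its calls were 5 of 22 amino acid genes, 4 of 25 bZIP genes and 4 of 26 stress signalling targets. It also called 2 of 22 chaperone genes, 1 of 20 eIF2 genes and 0 of 20 tRNA synthetases. That fit has few libraries, leans heavily on the spread estimated over all genes, and takes replicates 1 and 2 as paired by number. The correlations between libraries cannot show such pairing. Of the amino acid genes, SLC1A5, SHMT2, MTHFD2 and PYCR1 were lower in copper, by log2 fold changes from -0.21 to -0.16. SLC7A11, the cystine transporter subunit, was higher (0.47, adjusted p 2.41e-06). It was also called in replicates 1 and 2 without the block (adjusted p 0.0236). SLC7A11 differed between same-numbered libraries by 0.49 and 0.44 (log2) in replicates 1 and 2 and by -0.44 in replicate 3, and its edgeR log2 fold change over all 6 libraries was 0.21 (SE 0.21). The bZIP calls, CEBPD, NFE2L1, JUNB and ATF7, were all lower in copper. In the stress signalling list SQSTM1 (adjusted p 2.48e-05) and RIT1 were higher, and CLIC4 and DDIT4 lower. GCN1 (adjusted p 0.00362) of the eIF2 list was lower, as were the chaperone list's DERL1 and SYVN1. SLC1A5, SHMT2, PYCR1, SLC7A11, CEBPD, JUNB, DDIT4 and SYVN1 were named after their values were seen.

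**Figure D5:**
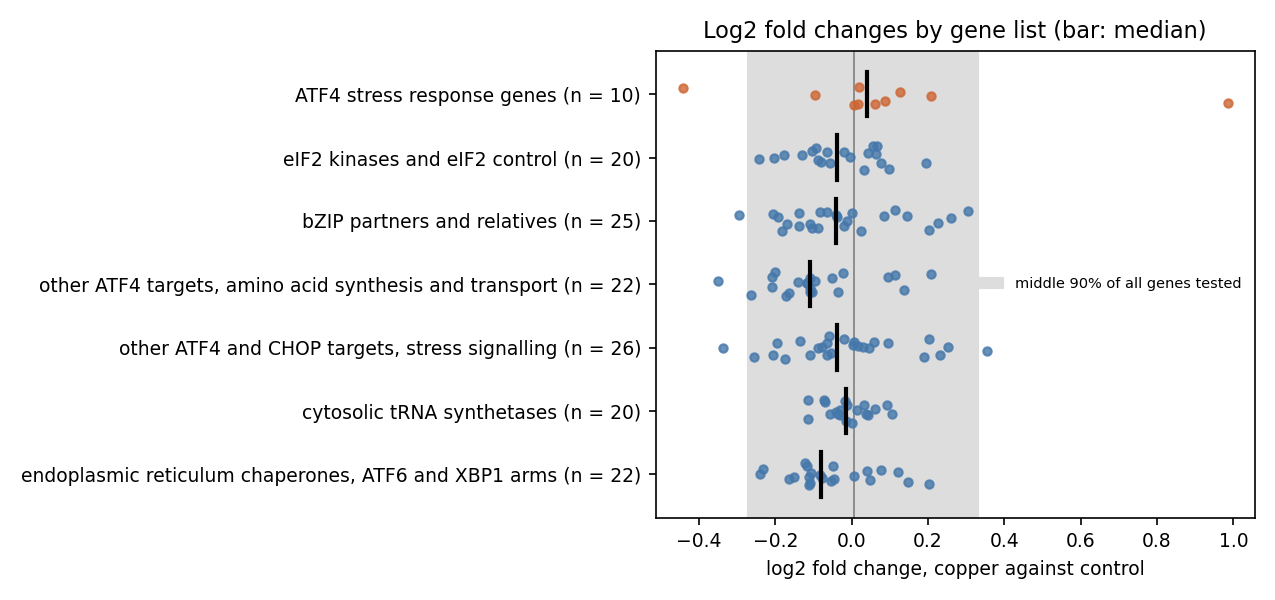
Log2 fold changes, copper against control (horizontal axis), of the 10 genes (orange) and of 6 lists of pathway genes (blue), 1 point a gene and a bar at the median, with the middle 90% of all genes tested (-0.27 to 0.33) shaded. GDF15 lies at 0.98, to the right of every other point, and all 7 medians lie between -0.11 and 0.039.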

How the data were processed

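RNA-seq libraries from total RNA of 6 samples (3 copper, 3 control) were prepared with a directional NEBNext kit, as the labels state. What the authors deposited is a single table of raw counts, with 1 column a library. The submitters' processing notes name STAR, FastQC, edgeR and the build GRCh38, without role or version. The counting program, its use of strand and its treatment of reads matching several genes are not given in the sources used here. The table's 5 rows that name no gene (0.000814% of counts) were dropped. Deposited starts count from 0, and 1 was added: 68.1% of starts then equalled the RefSeq GRCh38.p14 start, against 3.60% before.

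The fit used edgeR 4.0.16 in R 4.3.3: filterByExpr (minimum count 10, minimum total 15), TMM scaling, a robust quasi-likelihood test on group alone, Benjamini-Hochberg adjustment over 12944 genes, calls under 0.05, and log2 fold changes with a prior count of 2. Intervals use the unshrunken estimate and the test's moderated degrees of freedom. Replicate number was tested with an F test on its 2 coefficients. Both groups carry numbers 1 to 3 in the labels. Deviations from the group mean correlated between same-numbered libraries at 0.46, 0.40 and 0.65 across genes. All were above the minimum of 0.1 set for giving blocked values, which are given where they matter. Replicates 1 and 2 also correlated across numbers (0.27 for copper 2 with control 1, 0.32 for copper 1 with control 2), whereas replicate 3 correlated at -0.45 or below with each of them. The group mean includes replicate 3, which by itself makes replicates 1 and 2 deviate alike. The correlations therefore set replicate 3 apart but cannot show that replicates 1 and 2 are paired by number. The numbers are those of the sample titles, where nothing ties a number to a day or batch. The deposited columns carry other numbers, which the titles do not explain. In the order of the titles they are Cu6, Cu7 and Cu9 for copper and NCu1, NCu2 and NCu4 for control. Libraries of 1 group differed from each other by a chi-square of at least 5.04 per degree of freedom, more than sampling noise gives, and each was counted once.

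The genes named were the 10 members, the 3 genes of lowest p in every list, and the 5 nearest to the members' mean profile. Members and lists were chosen with earlier results of these data known. Lists were written from general knowledge and are described by counts and medians, with no set test. Counting errors are 100 divided by the square root of the count. Alternatives were other scalings and filters, DESeq2 1.42.0, limma-voom 3.58.1, a non-robust fit, a prior count of 0.125, thinned counts, left-out libraries, and the replicate block. The scripts were also run on simulated counts with planted changes. Those counts had the same spread setting for all genes and, for the copper comparison, no difference between replicate numbers, unlike these data.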

Additional observations from a re-analysis of the deposited data

How the results depend on the processing

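The count of genes called between copper and control was 0 in the fit reported and under 12 of 22 alternatives. Thinned counts gave 1 call, the lack of a filter 12, DESeq2 27, replicates 1 and 2 alone 111. There were 22 with the replicate block and 58 with the replicate block and DESeq2. Fits that left out 1 library called between 0 and 15, the 15 when copper replicate 3 was the one left out. The replicate block called 74 without replicate 1, 77 without replicate 2 and 912 without replicate 3. The block turned no member's call in edgeR (GDF15, 0.0533) and 1 in DESeq2 (GDF15). The count called by replicate number, 836, was 3109 with no filter, 1450 with DESeq2 and 292 in replicates 1 and 2 alone, and from 1177 to 6997 without 1 library, with 6997 without control replicate 3 and 3245 without copper replicate 3. The causes were not tested.

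The median of the 10 members (0.039) moved by more than its spread over replicate numbers only in the blocked fit without replicate 1, to 0.082. The median of bZIP partners was -0.020 with upper-quartile, -0.013 with total-count scaling, -0.060 with no filter, -0.061 with limma-voom, -0.020 in replicates 1 and 2 alone, -0.057 with the replicate block, -0.026 with the block without replicate 3, -0.068 with the block without replicate 1 and -0.060 with the block in DESeq2. That of amino acid targets was -0.086 with upper-quartile and -0.081 with total-count scaling. Without 1 library or pair, the bZIP median ranged from -0.068 to -0.021, that of amino acid targets from -0.14 to -0.059, that of stress signalling targets from -0.067 in the block without replicate 2 (-0.065 without copper replicate 3) to 0.015 without copper replicate 1, that of chaperones from -0.12 to -0.0071, that of eIF2 genes from -0.082 to 0.010 and that of tRNA synthetases from -0.036 to 0.017.

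Of the genes named, some with values near 0 changed sign without any call. ATF4 was at -0.014 with no filter and -0.0050 in replicates 1 and 2 alone, PSAT1 at -0.0058 with no filter, DDIT3 at -0.013 with thinned counts, and TRIB3 at -0.10 and FARSA at -0.021 in replicates 1 and 2 alone. Without 1 library the log2 fold change ranged from -0.045 to 0.064 for ATF4, -0.053 to 0.23 for ATF3, -0.13 to 0.18 for DDIT3, -0.072 to 0.25 for CEBPB, -0.12 to 0.15 for TRIB3, -0.25 to 0.044 for CHAC1, -0.076 to 0.13 for PSAT1, 0.086 to 0.35 for SESN2, -0.62 to -0.23 for ASNS and 0.76 to 1.21 for GDF15. In the replicate block without 1 pair, ATF4 was at -0.0040, DDIT3 at -0.0042, TRIB3 at -0.10, CHAC1 at 0.0012, PSAT1 at -0.028 and FARSA at -0.022. Depth limits ASNS, GDF15 and CHAC1, with 38 to 234 counts per library, more than the others.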

Other observations

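PHGDH, the enzyme just before PSAT1 in serine synthesis and also a known ATF4 target, had 1 to 3 counts in each of the 6 libraries, 0.0520 to 0.168 CPM before TMM scaling, and did not pass the filter. PSAT1 had 4536 to 8137 counts in the same libraries, and its group means were 286 ± 37.0 and 283 ± 41.2 CPM (SD, n = 3) in copper and control. PHGDH was singled out after its values were seen. The other list genes below the filter were CEBPA (0 to 2 counts), BATF3 (4 to 7) and FGF21 (0 to 1).

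The 10 genes did not share a profile over the 6 libraries. With each gene's log2 CPM standardised over the libraries, the root mean square distance of a member from the mean profile of the 10 ran from 0.816 for ATF4 to 1.01 for ASNS, and the mean profile itself stayed between -0.32 and 0.21. The 5 other genes nearest to that profile were UCHL3, OASL, TSG101, PARS2 and SNAP29, at distances of 0.717 to 0.720, with edgeR adjusted p-values of 1.00 for copper against control. Of these, OASL was at only 0.105 CPM (control replicate 3) to 0.971 CPM (copper replicate 3), so its profile rests on few counts.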
